A study of Mus musculus with 6 samples.

Results

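The MS4A family encodes small membrane proteins that cross the membrane several times and sit beside immune receptors at the cell surface. It was followed here through the immune cells of the mouse kidney, by 9 features, namely Ms4a1, Ms4a4a, Ms4a4b, Ms4a4c, Ms4a6b, Ms4a6c, Ms4a6d, Ms4a7 and the noncoding neighbour Gm56663. They were taken by symbol and are 9 of the 33696 features counted. Another 13 MS4A genes were present in the same feature list. Single-cell 3' RNA sequencing (scRNA-seq) had been performed on the kidneys of 3 sham-operated and 3 DOCA-salt animals, all male C57BL/6 mice of 8 to 10 weeks. The DOCA-salt mice had lost the left kidney, received a 50 mg pellet of deoxycorticosterone acetate (DOCA, a mineralocorticoid) 1 week later and drank 1% NaCl for 21 days. The sham mice had sham surgery, normal water and no pellet. The effects of nephrectomy, salt and DOCA therefore cannot be told apart. Whole kidney tissue was digested with 0.2% collagenase II at 37 °C for 30 to 60 min, with no sorting of immune cells.

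MS4A genes lie in one cluster on a single chromosome, and different members serve different leukocytes. Ms4a1 encodes CD20, the B cell surface protein targeted by therapeutic antibodies. Ms4a4b is a T cell gene whose protein associates with the costimulatory receptor GITR (Tnfrsf18), and the MS4A4A protein of macrophages associates with the fungal receptor Dectin-1 (Clec7a). Ms4a7 is used as a marker of several tissue macrophage populations, and Ms4a2 encodes the beta chain of the high-affinity IgE receptor of mast cells.

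The 6 libraries held 93172739 to 137819127 unique molecular identifiers (UMIs) each, and 55630 of 76774 barcodes were kept as cells. A barcode was dropped when over 50% of its UMIs were mitochondrial or when it was called a doublet. Any 2 libraries shared 33 to 69 barcodes. Immune clusters held 3690 cells, 1110 from sham and 2580 from DOCA-salt kidneys. These include cluster 9, which was led by proximal tubule genes and is counted in no immune type, with 5, 9 and 7 sham and 34, 94 and 121 DOCA-salt cells of which 27.0% held a Ptprc UMI, and 7 endothelial-like cells. Types were named from lists of marker genes, none of them an MS4A gene, and MS4A genes were kept out of the clustering. The names macrophages, monocytes, dendritic cells, T cells, NK cells and B cells stand for macrophage-like cells and so on. All 10 macrophage markers were detected in each of the 7 macrophage clusters, and C1qa reached 4113 ± 190 (sham) and 4763 ± 189 (DOCA-salt) CPM in macrophages (SD, n = 3 mice each). Macrophages numbered 148, 126 and 128 in the sham mice and 409, 539 and 570 in the DOCA-salt mice, so their share of all cells was 1.47% ± 0.18 against 5.38% ± 0.67 (SD, n = 3). Levels (CPM) are UMIs of the gene per 1000000 UMIs of that type in that mouse, with the 3 sham values first. The p-values measure the spread between these 6 libraries, 1 per mouse.

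**Figure D1:**
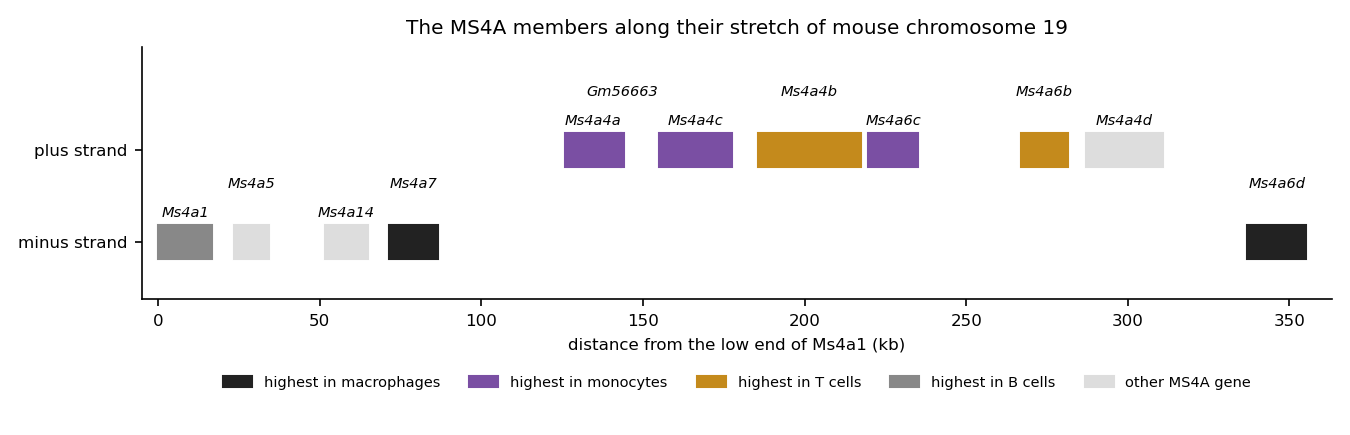
The members and their MS4A neighbours drawn to scale along chromosome 19 by strand, with distance in kb from the low end of Ms4a1 and the colour giving the immune type with the highest mean level over all 6 mice. Gm56663, 485 bases long and coloured with the monocyte genes, is too short to see at the right end of Ms4a4a, and members with different leading types stand side by side.

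The 9 members spanned 355 kb of chromosome 19 (GRCm39, chr19:11227039-11582213, GENCODE annotation). Of these, 6 ran on the plus strand in one row, Ms4a4a, Gm56663, Ms4a4c, Ms4a4b, Ms4a6c and Ms4a6b, and Ms4a1, Ms4a7 and Ms4a6d ran on the minus strand. Neighbours on the map could lead in different cells, as Ms4a4c (monocytes) and Ms4a4b (T cells) did with 7946 bases between them. Their upstream windows are printed here because they were the most alike of all member pairs and yet belonged to genes read in different leukocytes. Over the best ungapped alignment 105 of 124 bases were identical (84.7%). Each window is the 150 bases before the annotated transcript start, on the gene's own strand, and capitals mark GGAAGT or its complement ACTTCC, the core of an ETS family motif.
Ms4a4b (chr19:11420787-11420936, plus strand): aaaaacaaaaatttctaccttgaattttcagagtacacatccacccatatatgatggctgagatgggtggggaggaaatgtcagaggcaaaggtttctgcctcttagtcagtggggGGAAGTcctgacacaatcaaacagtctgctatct
Ms4a4c (chr19:11384867-11385016, plus strand): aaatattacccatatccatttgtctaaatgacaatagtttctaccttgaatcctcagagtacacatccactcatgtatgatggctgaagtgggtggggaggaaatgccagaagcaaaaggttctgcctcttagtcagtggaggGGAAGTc

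The Ms4a6b and Ms4a7 windows also held these letters and are shown as further examples among the members higher in macrophages. Ms4a6c, also higher there, held none within its window and is set beside Ms4a6b, with which it shared 49 of 67 aligned bases (73.1%). In that alignment the Ms4a6c window ends at the GG of the first GGAAGT of Ms4a6b. The bases that follow in Ms4a6c lie past its annotated start and were not read, so no contrast is drawn from its lack of a match.
Ms4a6b (chr19:11495773-11495922, plus strand): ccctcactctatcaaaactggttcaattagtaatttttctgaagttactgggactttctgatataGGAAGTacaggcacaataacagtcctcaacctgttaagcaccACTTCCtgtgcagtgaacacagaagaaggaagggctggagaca
Ms4a6c (chr19:11446568-11446717, plus strand): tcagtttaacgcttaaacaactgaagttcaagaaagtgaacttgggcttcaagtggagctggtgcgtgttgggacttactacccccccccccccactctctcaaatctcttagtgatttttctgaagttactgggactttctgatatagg
Ms4a7 (chr19:11313509-11313658, minus strand): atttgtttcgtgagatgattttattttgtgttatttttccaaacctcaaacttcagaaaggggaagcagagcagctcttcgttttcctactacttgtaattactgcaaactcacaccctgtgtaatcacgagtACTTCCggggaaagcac

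GGAAGT on either strand was present in 5 of the 8 protein-coding members and in 13.2% of the 21770 windows of all coding genes. It was searched for after the windows had been read. An interferon-stimulated response element (in 1.65% of windows), a C/EBP motif (TTGCNNAA, 5.08%), an AP-1 motif (TGACTCA, 2.46%) and a TATA box (TATAAA, 7.29%), searched on both strands, had no match in the members' windows. A match is a description of letters and not a binding site.

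Ms4a4a and Gm56663 lay end to end on the same strand, 48 bases apart. In the annotation the Ms4a4a model stopped at the last base of its stop codon, with 0 bases after it. The other 7 coding members had 478 to 3956 genomic bases between stop codon and transcript end, any intron there included. Gm56663 is annotated as a separate noncoding RNA of 485 bases and carries a polyadenylation signal that begins 31 bases before its end. Reads from the 3' end of transcripts are counted by this assay, so both ends are printed, with the stop codon and the AATAAA signal in capitals.
end of Ms4a4a (chr19:11370125-11370154, plus strand): gagagaaatgttccagaaaatatgcacTGA
signal of Gm56663 (chr19:11370657-11370686, plus strand): AATAAAccatccatttactggctaaataac

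Whether the Gm56663 UMIs came from a longer Ms4a4a transcript was not tested, and both features are given separately and added together. Members otherwise had separable 3' ends, since no stretch of 31 bases was shared between any pair in the last 500 bases of their transcripts. Over whole transcripts Ms4a6b and Ms4a6c shared 257 such stretches, and Ms4a4b and Ms4a4c shared 226. Antisense long noncoding RNAs overlapped Ms4a1, Ms4a4a, Ms4a6b and Ms4a6c, and processed pseudogenes overlapped Ms4a4c (Gm5692, on the opposite strand) and Ms4a4b (Gm5511, on the same strand). Whether the counting used strand is not given in the sources used here.

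Members differed in their leading cell type. Types come from clusters of the same cells, so levels of different types are a description and carry no test. Ms4a7 was a macrophage gene, at 576 ± 213 CPM in macrophages (SD, n = 6 mice) against 13.3 ± 17.7 in monocytes, the next type. Macrophages exceeded monocytes in 6 of 6 mice. Ms4a1 was a B cell gene, at 349 ± 82.5 CPM in B cells (n = 6) and 8.21 ± 14.2 in the 3 sham mice with enough NK cells. Ms4a4b was shared by T cells, at 552 ± 105 CPM (n = 6), and NK cells, at 475 ± 129 (n = 3), and T cells were the higher in only 2 of 3 mice, within the spread. Gm56663, Ms4a4a and Ms4a4c were highest in monocytes, at 238 ± 111, 87.7 ± 102 and 238 ± 103 CPM (n = 6). Ms4a4c came next in B cells (85.3 ± 58.7) and dendritic cells (77.0 ± 27.5), whose order differed between the groups. The next type of Gm56663 and Ms4a4a also differed between the groups. In DOCA-salt mice it was macrophages, at 59.6 ± 17.4 and 8.07 ± 0.64 CPM (n = 3), and in sham mice B cells, at 9.63 ± 9.23 and 14.8 ± 19.4 CPM, the Ms4a4a value from 5 UMIs.

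The 3 members of the 6 branch were read in several leukocytes. Ms4a6c stood at 562 ± 207 CPM in monocytes and 232 ± 117 in macrophages, with monocytes the higher in 5 of 6 mice. Ms4a6b was highest in T cells (308 ± 107) and monocytes (256 ± 73.5), an order held in 4 of 6 mice only. It turned between the groups, with T cells at 250 and monocytes at 267 CPM in sham mice and 366 and 245 CPM in DOCA-salt mice (means, n = 3). Ms4a6d was at 62.4 ± 37.6 CPM in macrophages and 60.3 ± 46.7 in monocytes and did not separate them. The 55 neutrophils held 0 UMIs of every member, at a median of 1848 (sham) and 2333 (DOCA-salt) UMIs per cell, a depth at which low levels were not detectable.

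**Figure D2:**
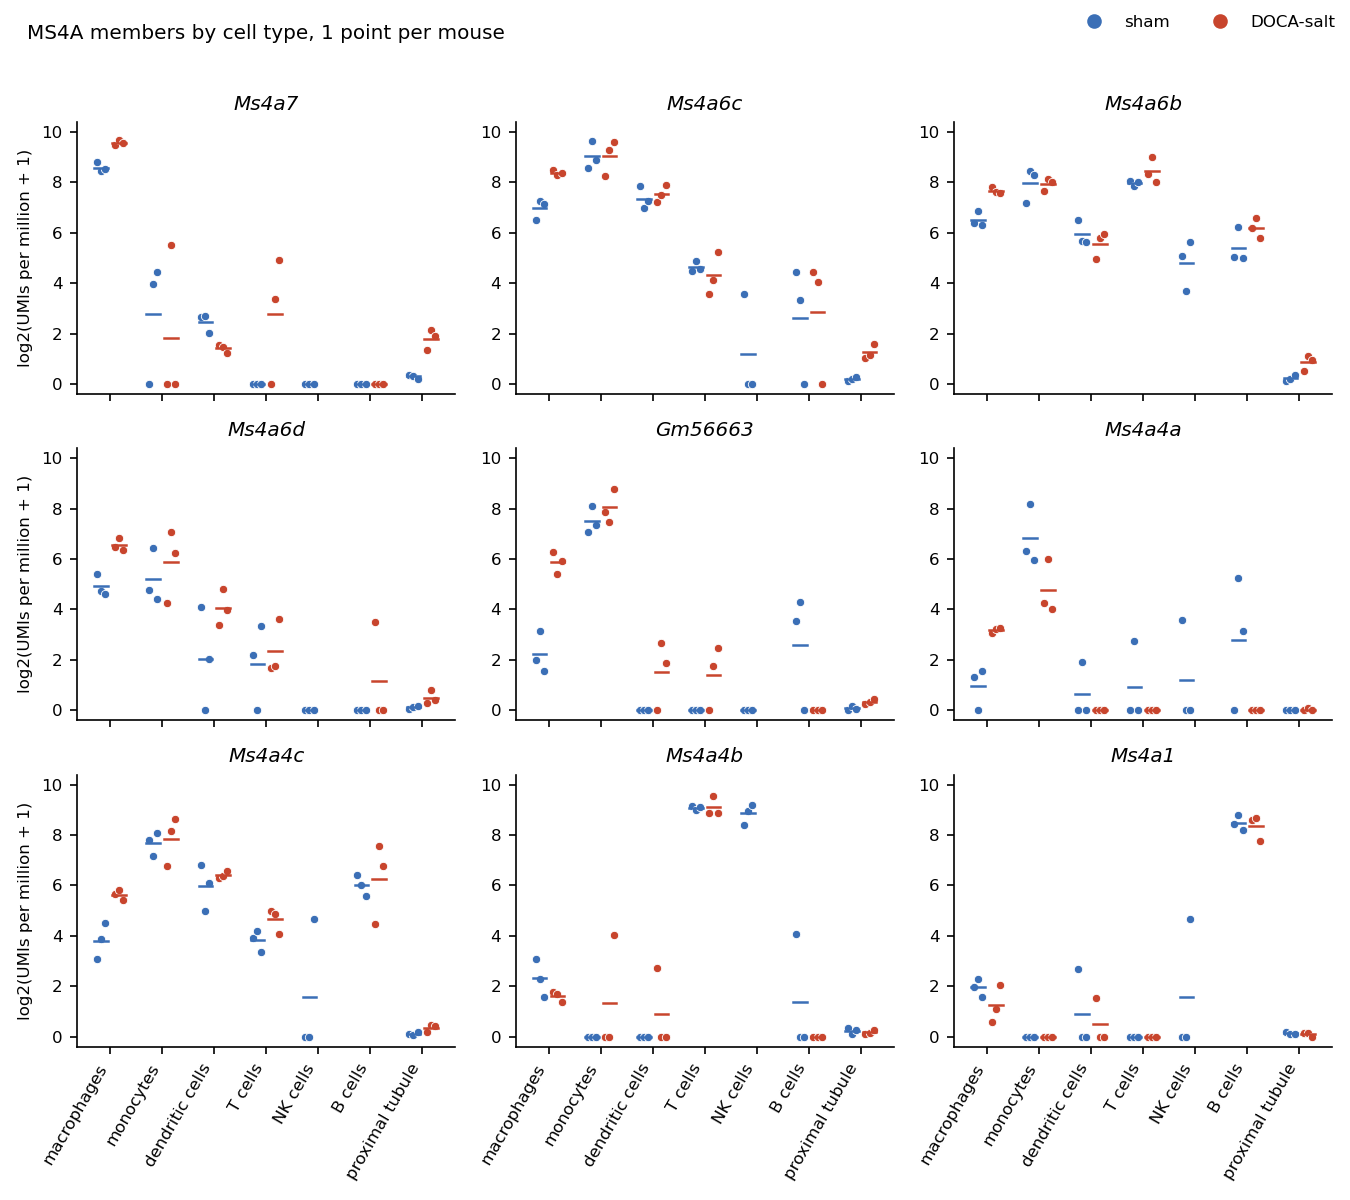
Level of each member as log2(CPM + 1) in 6 immune types and in proximal tubule cells, with 1 point per mouse (blue sham, red DOCA-salt) and a bar at the mean of the log values. Groups separate in macrophages for Ms4a7, Ms4a6c, Ms4a6b, Ms4a6d, Gm56663, Ms4a4a and Ms4a4c, while monocytes, dendritic cells, T cells and B cells overlap for all tested members. NK cells of DOCA-salt mice are not drawn, with 6 to 8 cells each, and the proximal tubule points include the 270 cells of cluster 9.

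In macrophages of DOCA-salt kidneys 6 of the 6 members that could be tested were higher than in sham (edgeR quasi-likelihood test on summed UMIs, Benjamini-Hochberg adjusted over 8960 genes). Of all genes tested 2.47% were called higher and 2.25% lower, and their median log2 change was 0.01. The groups of 7 members, the tested ones and Ms4a4a, did not overlap, a state found for 17.3% of tested genes in that direction. Ms4a1 and Ms4a4b, genes of lymphocytes, were near 0 in macrophages, overlapped and were not tested. The filter on low counts fixed part of this count, since Gm56663 (2, 4 and 1 UMIs) and Ms4a4c (5, 7 and 11 UMIs) were low in sham macrophages and passed through the DOCA-salt mice, where they were high, so nothing is read from 6 of 6. With no filter all 9 members were tested, and the 6 and Ms4a4a (2.73, edgeR adjusted p = 0.0186) were called higher, as were 2.4% of 20186 genes, while Ms4a1 (-0.77, 0.839) and Ms4a4b (-1.14, 0.623) were not called.

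Ms4a7, the macrophage member, was at 444, 346 and 370 CPM in sham and 725, 824 and 749 CPM in DOCA-salt macrophages. Every DOCA-salt mouse lay above every sham mouse. The difference was 1.85-fold, or 0.89 on the log2 scale (SE 0.15, 95% interval 0.56 to 1.21, edgeR adjusted p = 0.00326). It was the smallest of the 6 changes.

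Ms4a6c was at 89.9, 154 and 141 CPM in sham and 362, 311 and 335 CPM in DOCA-salt macrophages. The groups stood well apart, with a log2 change of 1.3 (SE 0.19, edgeR adjusted p = 0.00124). Ms4a6b was at 82.6, 115 and 78.2 CPM against 226, 195 and 191 CPM. It rose by 1.05 (SE 0.18, edgeR adjusted p = 0.00269), the lowest DOCA-salt mouse being above the highest sham mouse. Ms4a6d was at 41.3, 25.4 and 23.5 CPM against 88.6, 114 and 81.4 CPM, a log2 change of 1.52 (SE 0.24, edgeR adjusted p = 0.00167). All 3 genes of the 6 branch thus moved the same way.

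Gm56663 showed the largest change of the family. It was at 2.95, 7.81 and 1.96 CPM in sham macrophages, from 7 UMIs in all, and at 76.9, 42.0 and 60.0 CPM in DOCA-salt macrophages, from 498 UMIs. The log2 change was 3.71 (SE 0.45, 95% interval 2.75 to 4.68, edgeR adjusted p = 0.000357). With so few sham UMIs its size is uncertain, the ratio of UMIs per total being 13.7 with an exact 95% interval of 6.62 to 34.4. Ms4a4a, just upstream of it, was at 1.47, 0 and 1.96 CPM against 7.34, 8.35 and 8.52 CPM, that is 2 UMIs against 72. It did not pass the filter on low counts, and its ratio was 6.96 with an exact 95% interval of 1.86 to 58.5. Both intervals cover counting error only. With the UMIs of both features added, an alternative chosen after seeing the data, the log2 change in macrophages was 3.55 (SE 0.38, edgeR adjusted p = 0.000118). Ms4a4c, highest in monocytes, was at 7.37, 13.7 and 21.5 CPM against 49.0, 55.1 and 42.3 CPM and rose by 1.74 (SE 0.31, edgeR adjusted p = 0.00414). Without sham replicate 1 the change was 1.34 and the edgeR adjusted p 0.0504, and the other omissions kept the call.

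**Figure D3:**
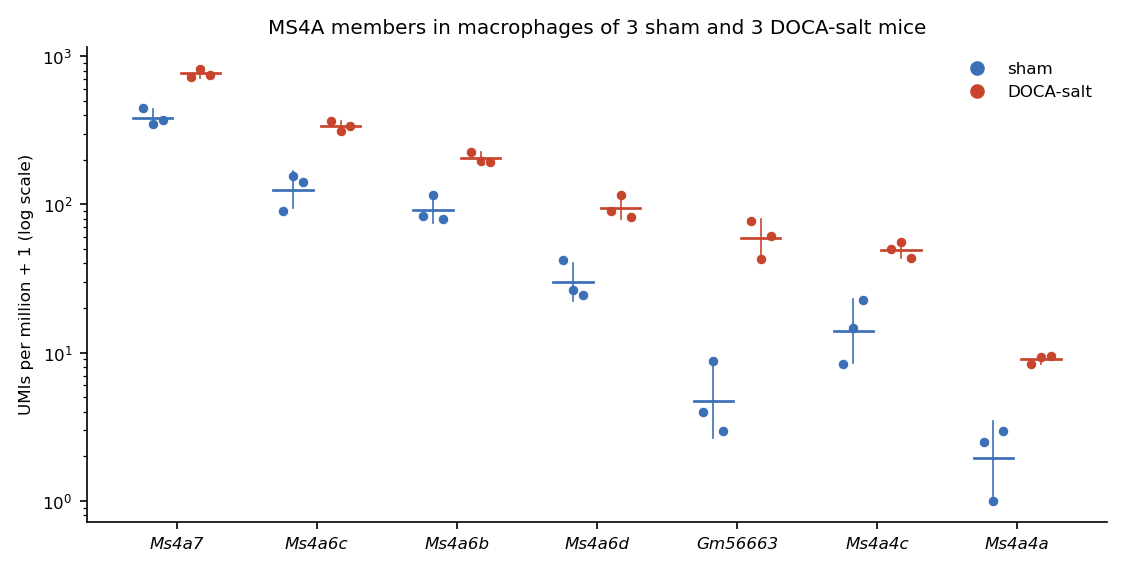
Level of 7 members in macrophages on a log axis of CPM + 1, with 1 point per mouse (blue sham, red DOCA-salt), a bar at the mean and a line of 1 SD, both taken on the log scale. Red points lie above blue points for all 7, with the widest gap for Gm56663 and the fewest UMIs for Ms4a4a (2 in sham).

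Of the DOCA-salt macrophages with an Ms4a4a UMI 32 also held a Gm56663 UMI and 25 did not (56.1% did), and 16.4% of the other macrophages held Gm56663, 240 cells. There were 692 Gm56663 UMIs per 100 Ms4a4a UMIs. The part of each cell's depth in this overlap was not tested. In sham macrophages 2 cells held Ms4a4a and 4 held Gm56663, with no cell in common.

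More macrophages also carried a UMI of each of the 6 members tested. Because DOCA-salt macrophages were deeper (median 5116 against 3914 UMIs), each cell was thinned to 1000 UMIs, leaving out 7 sham and 10 DOCA-salt macrophages. The share of macrophages with an Ms4a7 UMI was then 28.2% ± 3.6 in sham and 46.9% ± 3.2 in DOCA-salt mice (SD, n = 3), and 63.1% against 81.7% without thinning. The corresponding thinned shares were 10.7% and 26.6% for Ms4a6c, 8.52% and 18.6% for Ms4a6b, 2.82% and 7.74% for Ms4a6d, 1.24% and 4.52% for Ms4a4c and 0.232% and 4.64% for Gm56663. For each of these members the exact permutation test over mice gave p = 0.1, two-sided, the smallest that 3 against 3 allows. Ms4a4a went from 0.101% to 0.87%, also with exact p = 0.1, and its sham share, like that of Gm56663, lay below the share that 1 cell gives. Ms4a1 (0.284% and 0.153%) and Ms4a4b (0.3% and 0.266%) overlapped between the groups.

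Members were also read at low level in cells named as proximal tubule. Outside immune clusters and thinned to the same 1000 UMIs, these cells held an Ms4a7 UMI in 0.0184% (sham) and 0.156% (DOCA-salt) of cells and an Ms4a6c UMI in 0.0205% and 0.0972%, an alternative added after seeing the data. With cluster 9 included the shares were 0.0413% and 0.39% for Ms4a7 and 0.0217% and 0.23% for Ms4a6c. Cluster 9 itself, at a median of 870.5 UMIs per cell, held Ms4a7 at 393, 595 and 378 CPM in DOCA-salt mice. Macrophage shares were above the proximal tubule shares either way. Macrophages carried proximal tubule RNA in turn, with 0.188% to 0.492% of their UMIs from 9 tubule markers in sham and 0.102% to 0.178% in DOCA-salt mice, and 5 of 9 such genes were called lower in DOCA-salt macrophages and 0 higher, with a median log2 change of -1.01. Kap and Slc22a6, androgen-regulated and organic anion transport genes of the proximal tubule, fell by 1.64 and 1.45. Of all genes tested in macrophages 2.25% were called lower. The part of this carried-over RNA in the member values was not tested.

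Sham and DOCA-salt macrophages were spread differently over clusters. Of the 402 sham macrophages 266 lay in a cluster led by Mmp13, Ifnb1 and Ccl4 (cluster 0), which held 66 of 1518 DOCA-salt macrophages. The DOCA-salt cells lay mostly in clusters 1 (376 cells, led by Ccl2, Ccl12 and Cxcl2), 6 (352 cells, led by Hsph1 and Mertk among others) and 14 (287 cells, led by Ccl8, F13a1 and Fcrls). Ms4a7 was higher in DOCA-salt than in sham cells within each of the 7 macrophage clusters when the 3 mice were pooled, from 383 to 668 CPM in cluster 0 and from 375 to 677 in cluster 1. Ms4a6c went from 106 to 281 CPM in cluster 0 and from 117 to 312 in cluster 1, and Ms4a6d from 25.0 to 61.0 and from 29.2 to 60.3. In cluster 7 (Il1a, Fn1 and Fabp5), with only 3 sham cells, Ms4a6c, Ms4a6b and Gm56663 were lower in DOCA-salt cells instead, at 349 and 269 CPM, 149 and 93.1 CPM and 149 and 76.6 CPM. Ms4a4a, with 1 sham UMI in each of clusters 0 and 1, was at 0.926 and 0 CPM and at 4.17 and 3.15 CPM there.

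**Figure D4:**
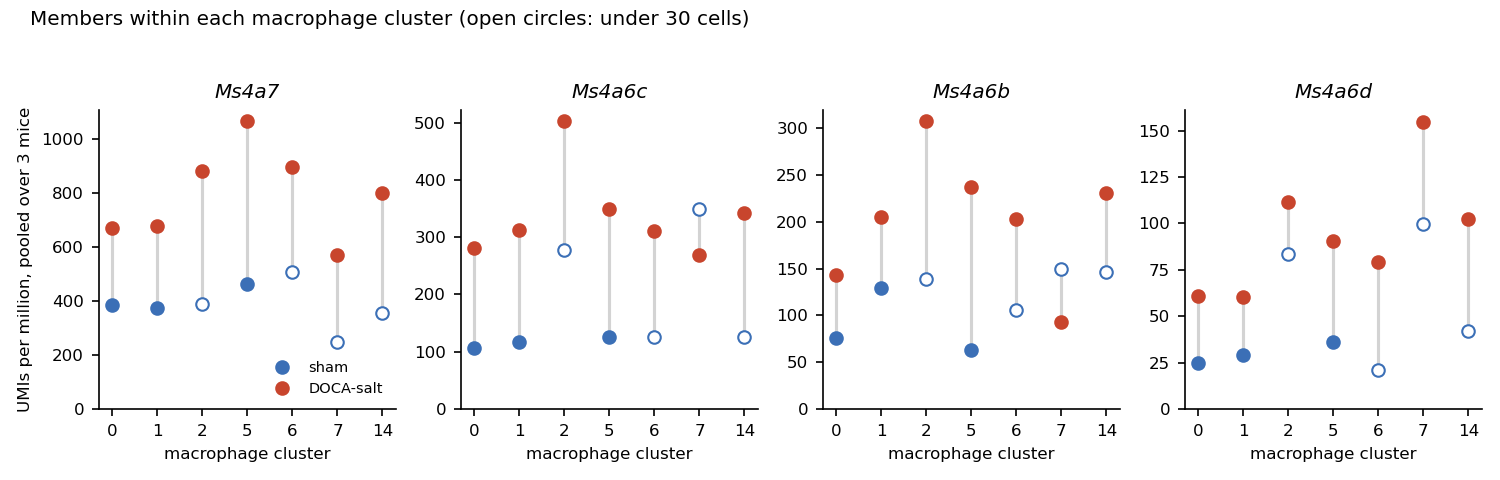
Pooled level of Ms4a7, Ms4a6c, Ms4a6b and Ms4a6d (CPM over the 3 mice of a group) in each of 7 macrophage clusters, blue for sham and red for DOCA-salt, joined by a grey line. Open circles have under 30 cells, and red lies above blue everywhere except for Ms4a6c and Ms4a6b in cluster 7, which has 3 sham cells.

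Members also differed among the DOCA-salt clusters. Cluster 2, led by Cxcl9 and the interferon-stimulated gene Ifit3, held Ms4a4c at 163 CPM and Ms4a6c at 502 CPM, against 35.1 and 312 in cluster 1. Ms4a6d peaked at 154 CPM in cluster 7, whose cells also had the least Ms4a4c (19.8). Gm56663 and Ms4a4a peaked in cluster 14, at 108 and 18.3 CPM, where Ccr2, the receptor of recruited monocytes, was at 40.3 against 182 to 252 CPM in clusters 1, 2, 5, 6 and 7. Ms4a4a was close to this in cluster 5, at 15.1 CPM from 10 UMIs. These values pool the mice and 154 of the 287 DOCA-salt cells of cluster 14 came from replicate 2.

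Clusters 0 and 1 were the only macrophage clusters with at least 10 cells of every mouse. With both together all 6 members were called higher, by 0.78 (Ms4a7) to 1.79 (Ms4a4c) for the 5 with sham UMIs, and Gm56663 went from 0 UMIs in sham. Of the 5875 genes of that fit 1.46% were called higher. Gm56663 passed the filter on low counts only through the DOCA-salt mice, where it was high. Ms4a4c was low in sham as well (11 and 2 UMIs in clusters 0 and 1), so nothing is read from all 6. In cluster 0 alone (14, 15 and 37 DOCA-salt cells) and in cluster 1 alone (15 to 23 sham cells) Ms4a6c stayed past the threshold, at 1.34 (edgeR adjusted p = 0.0387) and 1.36 (0.0239), with 0.122% and 0.256% of genes called higher. These single-cluster fits were added after seeing the data, and in them Ms4a7 was at 0.76 and 0.77 with adjusted p = 0.24 and 0.212. Among macrophages without a UMI of Trem2, Fcrls or Gpnmb, Ms4a4c (1.88), Ms4a6c (1.40) and Ms4a6b (1.01) were called higher, and Ms4a6d (1.04, edgeR adjusted p = 0.0555) and Ms4a7 (0.69, 0.0527) were not, in a fit where 1.05% of 6274 genes were called higher. Among macrophages with such a UMI, which had 16 to 33 sham cells per mouse, no member was called, with log2 changes of 0.51 to 2.19 and a smallest edgeR adjusted p of 0.0689, and 0.392% of 6892 genes were called higher.

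Naming macrophages barcode by barcode from markers, without clusters, removed the calls. All 6 changes stayed positive, from 0.40 for Ms4a7 to 2.36 for Gm56663 (edgeR adjusted p = 0.435 and 0.0626), in a fit where 0.553% of 13379 genes were called higher. Of the 2402 DOCA-salt barcodes named in this way 668 lay outside immune clusters and held 61.6% of the UMIs, 447 of the 2402 being in proximal tubule clusters. In sham kidneys 65 of 489 lay outside, with 44.4% of the UMIs. The barcodes within immune clusters alone, an alternative added after seeing the data, gave all 6 calls. Changes ran from 0.85 for Ms4a7 to 2.88 for Gm56663, with 2.63% of 9364 genes called higher. Of these barcodes 1486 DOCA-salt and 395 sham ones lay in the macrophage clusters. The fit therefore largely repeats the main one and is no separate support for it.

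Monocytes, the type with the highest level of several members, gave no call when named from clusters. In them 4 members could be tested among 1243 genes, of which 0% were called (0 by edgeR and 0 by DESeq2, 61 at an unadjusted edgeR p below 0.05). Ms4a6c was at 384, 810 and 474 CPM in sham and 308, 626 and 771 CPM in DOCA-salt monocytes. The groups overlapped, with a log2 change of 0.02 (95% interval -0.72 to 0.75). Gm56663 was at 132, 275 and 165 CPM against 236, 179 and 439 CPM, a log2 change of 0.51 (interval -0.38 to 1.39). Ms4a4c and Ms4a6b had changes of 0.34 and -0.10. Ms4a4a, not tested, was at 79.4, 289 and 61.8 CPM against 18.1, 62.6 and 15.1 CPM, from 29 and 9 UMIs, with overlap through 1 DOCA-salt mouse. With 11 to 18 monocytes per mouse the upper bounds of the 4 intervals, 0.75 (Ms4a6c), 1.39 (Gm56663), 1.21 (Ms4a4c) and 0.67 (Ms4a6b), lay below the changes of the same members in macrophages. This leaves out the error of the macrophage changes, and the direct test given below did not call Ms4a4c or Ms4a6b. Naming monocytes barcode by barcode from markers gave another result, with Ms4a4a (-5.33, edgeR adjusted p = 0.0145) and Ms4a6c (-2.10, 0.0451) called lower in DOCA-salt mice, the Ms4a4a value resting on 3 DOCA-salt UMIs. Of the 5244 genes of that fit 2.25% were called lower, and 283 in either direction. The barcodes so named in all 6 mice came from mixed clusters, 58 from the monocyte cluster, 33 from fibroblast and 22 from proximal tubule clusters, and the part of this in the member values was not tested. In that fit, which lacks sham replicate 3 with under 10 barcodes, Ms4a6b (-2.03, edgeR adjusted p = 0.0586), Ms4a4c (-1.60, 0.118) and Gm56663 (-1.62, 0.174) were not called.

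The difference between macrophages and monocytes was itself tested, with each mouse as a block. It was called for Gm56663, whose change was 3.14 larger on the log2 scale in macrophages (SE 0.62, edgeR adjusted p = 0.00543), for Ms4a4a at 4.49 (SE 1.11, edgeR adjusted p = 0.0382) and for Ms4a6c at 1.28 (SE 0.32, edgeR adjusted p = 0.0479). Of 5341 genes 0.337% were called in that direction. The Ms4a4a value rests on 2 UMIs in sham macrophages. Ms4a4a and Gm56663 passed the filter on low counts through the groups where they were high, so nothing is read from the number of members called. Ms4a4c (1.48, edgeR adjusted p = 0.307), Ms4a6b (1.12, 0.232), Ms4a6d (0.73, 0.901) and Ms4a7 (-0.03, 1) were not called, and Ms4a7 rests on 2 (sham) and 5 (DOCA-salt) monocyte UMIs. Without sham replicate 1, 2 or 3 no member was called, with the adjusted p of Gm56663 at 0.0846, 0.0753 and 0.119. Without DOCA-salt replicate 1 only Gm56663 was called, without replicate 3 Gm56663 and Ms4a6c, and without replicate 2 all 3.

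Dendritic cells gave no call among the 3 members tested, Ms4a6c, Ms4a4c and Ms4a6b, in a fit where 0.112% of 5351 genes were called in either direction (341 at an unadjusted edgeR p below 0.05). Ms4a6c was at 229, 124 and 153 CPM in sham and 147, 180 and 235 CPM in DOCA-salt mice, with a log2 change of 0.14 (95% interval -0.44 to 0.71). Ms4a4c and Ms4a6b changed by 0.32 (-0.44 to 1.09) and -0.33 (-1.07 to 0.41). Their groups overlapped. The macrophage changes exceeded the dendritic cell changes by 1.11 (Ms4a6c), 1.33 (Ms4a6b) and 1.40 (Ms4a4c), with edgeR adjusted p = 0.14, 0.139 and 0.232. The differences for Ms4a7 (2.36, edgeR adjusted p = 0.394, from 4 and 3 dendritic cell UMIs) and Ms4a6d (-0.15, 0.97) were not called either. Nor was that for Gm56663 (0.906), whose dendritic cell UMIs numbered 0 (sham) and 5 (DOCA-salt), so that its size is not given. Thus 0 members were called in this direction against 0.375% of 6935 genes. Unadjusted edgeR p values were 0.00308, 0.003 and 0.00945 for the first 3 and 0.0306 for Ms4a7.

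Both dendritic clusters differed in members more than the groups did. The cluster led by Cd209a and Clec10a, genes of type 2 conventional dendritic cells, held Ms4a6c at 402, 311 and 293 CPM in sham and 383, 332 and 483 CPM in DOCA-salt mice. Its Ms4a4c and Ms4a6b were at 167 ± 52.0 and 110 ± 38.4 CPM (SD, n = 6). The cluster led by Xcr1 and Clec9a, genes of type 1 cells that cross-present antigen, held Ms4a6c at 40.5 ± 11.4, Ms4a4c at 10.96 ± 9.5 and Ms4a6b at 14.0 ± 8.88 CPM (n = 5 mice with 10 cells).

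T cells carried Ms4a4b in both groups. It was at 566, 508 and 545 CPM in sham and 470, 751 and 474 CPM in DOCA-salt mice, with DOCA-salt replicate 2 alone above the rest. The log2 change was -0.02 (95% interval -0.49 to 0.46), in a fit of 5199 genes of which 0.0769% were called in either direction (443 at an unadjusted edgeR p below 0.05). Ms4a6b was at 265, 228 and 257 CPM against 321, 519 and 260 CPM. Its change of 0.46 (SE 0.26) did not pass (edgeR adjusted p = 0.671), and the interval ran from -0.08 to 1.01. The Ms4a6b change in macrophages exceeded that in T cells by 0.57 (SE 0.29, edgeR adjusted p = 0.495). The differences were not called for Ms4a4b (-1.34, edgeR adjusted p = 0.466), Ms4a6c (1.51, 0.276), Ms4a4c (0.86, 0.748) and Ms4a6d (1.25, 0.805). T cells held no sham UMI of Ms4a7 or Gm56663, and 17 and 3 DOCA-salt ones, so that no size is given for them, at edgeR adjusted p = 0.432 and 0.942. Unadjusted edgeR p values were 0.0377 for Ms4a7 and 0.0489 for Ms4a4b, and 0 members were called, with 0.15% of 7339 genes called in that direction.

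T cell clusters did not share Ms4a4b evenly. Pooled over mice it was at 716 CPM in a cluster led by Cd8a and Gzmk, 478 in one led by Lef1 and Tcf7 and 487 in one led by Cd40lg and Cd4, but 77.5 (12 UMIs in 33 cells) in a cluster led by Il17a and Il23r. A cluster left unnamed and led by Foxp3, Tnfrsf4 and Ctla4, genes of regulatory T cells, had 91.9 CPM (33 UMIs in 93 cells). Another unnamed cluster led by Ifng and Xcl1 had 413 CPM. From sham to DOCA-salt mice, pooled by group, Ms4a4b went from 568 to 789 CPM in the Cd8a cluster. It went from 511 to 439 in the Lef1 cluster, 604 to 448 in the Cd40lg cluster and 211 to 53.4 in the Il17a cluster (5 and 7 UMIs). These directions are of pooled values, and no test was made within the clusters. By mouse the groups overlapped in the Lef1 cluster (348, 624 and 598 against 557, 371 and 343 CPM). They also overlapped in the Cd40lg cluster (930.5, 472 and 543 against 378, 636 and 359 CPM). In the Cd8a cluster the highest sham mouse was at 629.7 and the lowest DOCA-salt mouse at 629.9 CPM, with DOCA-salt replicate 2 at 994. Between clusters Ms4a6b varied less, from 77.5 CPM in the Il17a cluster to 370 in the Cd8a cluster. In NK cells of sham mice Ms4a4b was at 337, 497 and 591 CPM, and NK cells of DOCA-salt mice (6 to 8 per mouse) were too few to compare.

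B cells carried Ms4a1 in both groups. It was at 346, 441 and 294 CPM in sham and 386, 408 and 216 CPM in DOCA-salt mice, with overlap, and the log2 change was -0.003 (95% interval -0.65 to 0.65) in a fit where 0.0573% of 1744 genes were called in either direction (88 at an unadjusted edgeR p below 0.05). Ms4a1 was the only member tested. Ms4a4c in B cells was at 83.9, 64.4 and 46.5 CPM against 20.8, 188 and 108 CPM, the DOCA-salt mice lying on both sides of the sham mice.

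**Figure D5:**
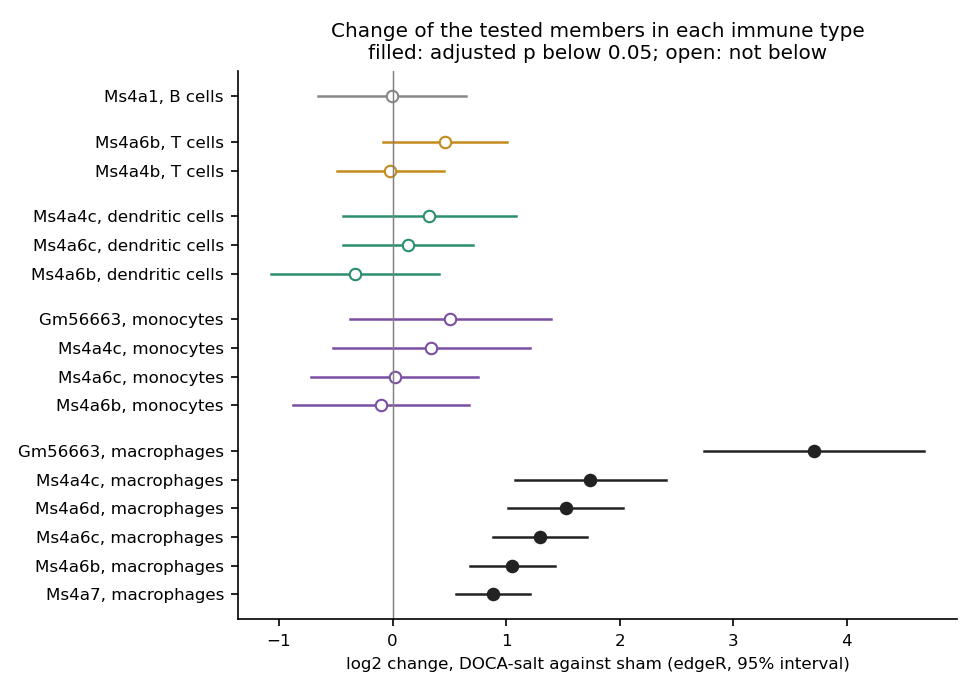
Log2 change of each tested member, DOCA-salt against sham, in 5 immune types from edgeR, with 95% intervals as lines, filled circles for adjusted p below 0.05 and open circles otherwise. The 6 macrophage points are filled and lie between 0.89 and 3.71, and the 10 points of the other types are open with intervals that include 0.

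Summed over all cells of a kidney, 6 members were higher and Ms4a1 was lower in DOCA-salt mice, with 11.5% of 19658 genes called higher and 5.69% lower. In such sums fewer cells of a type and less RNA per cell cannot be told apart. Ms4a7 went from 3.57, 2.87 and 3.2 to 18.4, 31.8 and 37.1 CPM (log2 change 3.05, SE 0.25, edgeR adjusted p = 0.000361). Gm56663 (3.06), Ms4a6d (2.58), Ms4a6c (2.47), Ms4a4c (1.79) and Ms4a6b (1.74) rose as well. Ms4a4a (0.68) and Ms4a4b (0.28) were not called, at edgeR adjusted p = 0.472 and 0.27, and Ms4a4a was called without sham replicate 2, at 1.74 (edgeR adjusted p = 0.0336).

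Ms4a1 was at 0.896, 0.78 and 0.676 CPM of the whole kidney in sham and 0.525, 0.368 and 0.309 CPM in DOCA-salt mice, which did not overlap, as for 9.47% of tested genes in that direction. The log2 change was -1.08 (SE 0.26, edgeR adjusted p = 0.0268), and the call was lost without sham replicate 1, sham replicate 3, DOCA-salt replicate 2 or DOCA-salt replicate 3, with adjusted p up to 0.104 and log2 changes of -1.34 to -0.92 over all 6 omissions. B cells made up 0.533% ± 0.08 of sham cells and 0.224% ± 0.1 of DOCA-salt cells (SD, n = 3).

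The source of the UMIs shifted between groups. Macrophages held 91.9% of sham and 89.5% of DOCA-salt Ms4a7 UMIs. For Gm56663 monocytes held 59.7% in sham and 9.42% in DOCA-salt kidneys, while macrophages went from 11.3% to 75.7%. Ms4a4a moved likewise, with monocytes at 69.0% and 10.1% and macrophages at 4.76% and 80.9%, of 42 and 89 UMIs. Macrophages also rose from 38.1% to 72.6% of Ms4a6c UMIs and from 22.7% to 59.4% of Ms4a6b UMIs. Of Ms4a6d UMIs they held 33.8% in sham and 70.2% in DOCA-salt kidneys. Unnamed clusters outside the immune ones held 43.95% of sham and 12.2% of DOCA-salt Ms4a6d UMIs, more than macrophages in sham. B cells held 85.4% of sham and 65.7% of DOCA-salt Ms4a1 UMIs, and T cells 57.0% and 72.9% of Ms4a4b UMIs. These shares depend on the number of cells of each type.

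Of the 13 other MS4A genes 1, Ms4a14, could be tested in macrophages. It was at 35.4, 17.6 and 39.1 CPM in sham and 29.4, 37.0 and 36.9 CPM in DOCA-salt mice, with overlap and a log2 change of 0.07 (SE 0.26, edgeR adjusted p = 0.939). Ms4a12 was at 1.14 ± 1.02 CPM in sham and 5.13 ± 2.78 CPM in DOCA-salt macrophages (SD, n = 3), from 2 and 45 UMIs, and was not tested. In whole kidneys 3 could be tested, and Ms4a14 was higher (2.31, SE 0.39, edgeR adjusted p = 0.00624) while Ms4a4d (1.03, 0.0935) and Ms4a2 (0.06, 0.907) were not called. Ms4a3, Ms4a5, Ms4a8a, Ms4a10, Ms4a12, Ms4a13, Ms4a15, Ms4a18, Ms4a19 and Ms4a20 passed the filter nowhere.

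Of 16 receptors and adaptors known to work with MS4A proteins 12 were tested in macrophages, 2 were higher and 0 lower, with a median log2 change of 0.17 beside 0.01 for all genes. Among all genes tested there 2.47% were called higher and 2.25% lower. Trem2, a lipid-sensing receptor, rose by 2.16 (SE 0.22, edgeR adjusted p = 9.34e-05), from 47.0 ± 20.5 to 232 ± 28.9 CPM (SD, n = 3). Fcgr2b, the inhibitory Fc receptor, rose by 0.86 (SE 0.15, edgeR adjusted p = 0.00387). Clec7a, the Dectin-1 gene, had a change of 0.02 (edgeR adjusted p = 0.967). In monocytes, dendritic cells, T cells and B cells 5, 10, 5 and 5 genes of this list were tested and 0 were called. Of all genes tested in these types 0% to 0.112% were called in either direction.

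Lists that describe macrophage states moved unevenly beside the members. In macrophages 2.47% of all genes tested were called higher and 2.25% lower. The lists were chosen with earlier results of these data known, so their counts are descriptions. Of 12 Trem2 macrophage genes tested 5 rose and 0 fell (median log2 change 1.11), with the microglial and macrophage gene Fcrls at 4.00. Gpnmb (2.94), Lpl (-0.44) and Plin2 (-0.01) were not called, at edgeR adjusted p = 0.211, 0.267 and 0.983. Of 6 infiltrating monocyte genes tested 4 rose and 0 fell (median 1.14), led by the transglutaminase gene F13a1 (3.06) and S100a4 (1.64), with Plac8 (-0.97) and Itga4 (-0.02) not called. Of 12 resident kidney macrophage genes 3 rose and 0 fell (median 0.08), led by the apolipoprotein gene Apoe (1.60) and the transcription factor gene Maf (0.87), with the antigen presentation genes H2-Ab1 (-0.50) and Cd74 (-0.49) not called. Of 15 interferon-stimulated genes tested 2 rose, Usp18 (1.35) and Irf7 (1.31), and 4 fell, with Ifit1 and Oasl2 at -1.22 and -1.11 (median -0.06). Of 15 dissociation response genes 2 rose, Ier3 (0.94) and Nr4a1 (0.91), and 2 fell, the heat shock genes Hspa1a (-0.85) and, named after its value was seen, Hsp90aa1 (-0.73), with Hspa1b at -0.76 not called (median -0.07). Their part in the member values was not tested. In monocytes, dendritic cells and T cells no gene of these lists was called, and in B cells 1 was, Spp1. Of all genes tested in these 4 types 0%, 0.112%, 0.0769% and 0.0573% were called in either direction.

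Over the 33 sums per mouse and type, Pearson's r of log2(CPM + 1) was highest between Ms4a1 and Mzb1 (0.968), Gm30211 (0.966) and Fcer2a (0.963), and between Ms4a4b and Prkcq (0.969) and Nkg7 (0.963). Ms4a7 was nearest to Igf1 (0.935), Stab1 (0.903) and Ccl12 (0.902), and Ms4a6d to Csf1r (0.887), Ctsb (0.878) and Ifi204 (0.871). Gm56663 was nearest to Fn1 (0.927), F13a1 (0.913) and Clec4e (0.902), and Ms4a4a to Clec4e (0.786), Cebpb (0.779) and Hp (0.776). Ms4a6c was nearest to Ier3 (0.937), Sestd1 (0.908) and Mcub (0.906), Ms4a4c to St3gal1 (0.84), Arl5c (0.813) and Xylt1 (0.808), and Ms4a6b to Il1r1 (0.785), Aopep (0.727) and Sh3kbp1 (0.711). Among the members themselves the nearest pairs were Ms4a6c and Ms4a6d (0.822) and Ms4a4a and Gm56663 (0.771). Sums of one mouse share its library and those of one type share its depth, so these values are descriptions.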

How the data were processed

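Kidney cell suspensions of 3 sham and 3 DOCA-salt mice had been run as 10x Genomics 3' v3.1 libraries, 1 per mouse. The authors aligned reads to GRCm39 and deposited UMI counts per gene and barcode. Their notes name Cell Ranger 9.0.0, and Seurat 4.0.0 under R 4.0.3 for later steps, whereas the file headers name another Cell Ranger release. The aligner's gene annotation version is not given in the sources used here. From the deposited counts, barcodes with over 50% mitochondrial or 5% haemoglobin UMIs were dropped, the barcodes with the highest Scrublet scores were removed as doublets at 0.8% per 1000 barcodes of a library (8.14% in all), and cells were clustered with scanpy 1.11.5 (2000 variable genes, 30 components, Leiden resolution 1), immune clusters a second time. A cluster was named from at least 3 detected markers. UMIs were summed per mouse and type, for types with 10 cells in a mouse, and tested with edgeR 4.0.16 (quasi-likelihood, TMM, filterByExpr, threshold 0.05). The test was checked on simulated counts. Named genes were all members, MS4A genes past the filter, called partners, the 2 largest rises and falls of each list and the 3 nearest genes of each member, of which 1 gene, like 1 upstream window, is not reported here. Members and lists were chosen with earlier results of these data known. Alternatives were DESeq2 1.42.0, other scaling, filters, clusters, replicate block and leaving out each mouse. Nothing but the number links replicates of equal number. The design text states that no sample was repeated, so libraries are taken as separate mice. Cell counts and UMI totals set the precision, and intervals on UMI ratios cover counting error only.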

Additional observations from a re-analysis of the deposited data

Results flagged for a closer look

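By the edgeR interaction test 3 of 7 members tested differed in their DOCA-salt change between macrophages and monocytes of the same mice, with 0.337% of 5341 genes called in that direction. The change in macrophages minus that in monocytes was 4.487 on the log2 scale for Ms4a4a (edgeR adjusted p = 0.0382), 3.14 for Gm56663 (0.00543) and 1.28 for Ms4a6c (0.0479). Ms4a4a rests on 2 UMIs in sham macrophages and 9 in DOCA-salt monocytes. It and Gm56663 (7 UMIs in sham macrophages) passed the filter on low counts through the groups where they were high. Nothing is therefore read from 3 of 7. For Gm56663 all DOCA-salt macrophage values lay above all sham values, while monocyte values of the groups overlapped. Without any 1 of the 3 sham mice no member was called, and leaving out each DOCA-salt mouse left 1 to 3 called. At Leiden resolution 2 Ms4a4a was at 3.85 and no longer called (edgeR adjusted p = 0.159). Gm56663 (3.22, edgeR adjusted p = 0.0199) and Ms4a6c (1.45, 0.0429) stayed called there. Groups of 3 mice were too small for a test of single outlying mice.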

How the results depend on the processing

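With no filter Ms4a1 and Ms4a4b were at -0.77 and -1.14 in macrophages and not called. The count of members called there was 6, or 5 without sham replicate 1 and 7 with no filter, except under 5 settings. It was 0 when barcodes were named by markers without clusters, 1 in cluster 0 alone, 1 in cluster 1 alone, 3 in macrophages without and 0 in macrophages with Trem2, Fcrls or Gpnmb UMIs, the last 4 settings having fewer cells. Leiden resolution 2 is not a setting on the same cells. It left 94, 78 and 64 sham macrophages, and an immune cluster of 204 cells led by Ifnb1 and Mmp13 was named proximal tubule there. Leaving out mice gave 5 to 6 called members in macrophages, 0 to 1 called lower and 6 to 7 called higher in whole kidneys, and 0 to 3 for the difference between macrophages and monocytes, for which leaving out mice was added after seeing the data. Naming by markers gave 2 members called lower in monocytes, Ms4a4a (-5.33) and Ms4a6c (-2.10), in a fit where 2.25% of 5244 genes were called lower and 58 of the barcodes so named in all 6 mice lay in the monocyte cluster, 33 in fibroblast and 22 in proximal tubule clusters, with Ms4a4c at -1.60 and Gm56663 at -1.62, not called, changes of -0.12 for Ms4a4c and -0.44 for Ms4a6c in dendritic cells, and levels of 426 CPM for Ms4a4b in T cells, 67.9 for Ms4a4c, 199 for Ms4a6c and 77.8 for Gm56663 in monocytes and 252 for Ms4a7 in macrophages.

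Other reversals were of changes not called in the main fit, and the reversed values below were not called either. These main changes ran from -0.33 (Ms4a6b in dendritic cells) to 0.51 (Gm56663 in monocytes). In monocytes Ms4a6c was at -0.0279 with the replicate block, -0.0620 with a 20% mitochondrial limit and -0.0144 at Leiden resolution 2, and Gm56663 with Ms4a4a added was at -0.13. Ms4a6b in dendritic cells was at 0.0734 without doublet removal. Ms4a4b in T cells was at 0.0654 with total UMIs only and 0.0717 without a filter. Ms4a1 in B cells was at 0.00347 with DESeq2 size factors and 0.0392 with the 20% limit. Leaving out mice moved Ms4a4c from -0.00135 to 0.64, Ms4a6b from -0.46 to 0.17 and Ms4a6c from -0.23 to 0.41 in monocytes, Ms4a4c from -0.12 to 0.75 and Ms4a6c from -0.0817 to 0.39 in dendritic cells, Ms4a4b from -0.27 to 0.11 in T cells and Ms4a1 from -0.20 to 0.21 in B cells. The causes were not tested.

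Replicate numbers were not treated as pairs, and the labels do not say whether equal numbers belong together. Deviations of same-numbered macrophage sums correlated at -0.12, -0.25 and -0.04, and those of unlike-numbered sums at -0.09 to 0.18. With so few mice these values cannot decide whether the numbers pair the samples. With the replicate block 6 members stayed called in macrophages, and genes called among 8960 fell from 423 to 202. That number was 741 of 20186 without the filter, 212 at Leiden resolution 2, 134 when named by markers and 218 to 586 leaving out mice. In whole kidneys it was 3387, 2043 with the block and 1745 to 4718 leaving out mice. Total UMIs only moved the macrophage median to 0.11 and no filter to 0.20. The 11 to 18 monocytes and 6 to 30 NK cells per mouse limited those types, and NK cells were tested under no alternative, with fewer than 10 in each DOCA-salt mouse. Their sham mean of Ms4a4b was 470 CPM at Leiden resolution 2 and 385 CPM, in 2 mice, when named by markers.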

Other observations

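Ms4a6d and Ms4a6b were also read outside the immune clusters. An unnamed cluster of 1063 cells led by Cldn5, Slc14a1, Sox17, Gja4 and Sema3g, genes known from vessel endothelium, held Ms4a6d at 15.1, 4.26 and 9.22 CPM in sham and 18.5, 32.1 and 21.8 CPM in DOCA-salt mice, from 199 UMIs. Ms4a6b was there at 10.6, 11.2 and 10.0 CPM against 15.04, 22.99 and 16.04 CPM, from 170 UMIs. The macrophage member Ms4a7 had 12 UMIs in these cells and Ms4a6c had 14. In intercalated cells, the acid-secreting cells of the collecting duct, 1 cluster of 808 cells held 46 Ms4a6b UMIs (4.66 CPM), 7 of Ms4a7 and 4 of Ms4a6c. The intercalated clusters of 972 and 496 cells held 23 (1.32 CPM) and 0 Ms4a6b UMIs. The clusters of 1063 and 808 cells were picked out after their values were seen, and no test was made.

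Of the other MS4A genes, Ms4a2 was read in proximal tubule cells at 2.20, 2.73 and 1.66 CPM in sham and 1.78, 3.17 and 2.88 CPM in DOCA-salt mice, and Ms4a4d in fibroblasts of the 3 DOCA-salt mice at 18.5, 17.9 and 18.95 CPM. Sham replicate 1 had Ms4a4d at 98.99 CPM in fibroblasts, from 15 UMIs, and the other sham mice had under 10 fibroblasts each, with 1 and 6 Ms4a4d UMIs. One unnamed cluster drew 625 of its 688 cells from DOCA-salt replicate 2 and held 28 Ms4a7 UMIs.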
